A study of Mus musculus with 4 samples.

Results

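The motile axoneme genes described here are those whose mouse symbols open with Dnah, Dnai, Dnal, Drc, Rsph, Tekt or Cfap, followed by a digit, an i or a c. Of 22808 gene identifiers in the table, 67 carried such a symbol: 15 dynein heavy chains, 5 dynein intermediate or light chains, 3 nexin-dynein regulatory complex genes, 8 radial spoke genes, 5 tektins and 31 Cfap genes. Their RNA was read from whole testes taken on postnatal day 23, with a single library (1) for Piwil1+/-, the heterozygote, and another for Piwil1-/-, the knockout. PIWIL1, also called MIWI, is a PIWI protein made in spermatocytes and round spermatids. Both libraries share age and tissue, and the control carries 1 mutant allele. Neither the strain of these mice nor whether a library pooled animals is stated in the sources used here. The 2 PIWIL1 immunoprecipitation libraries of the study, from wild-type C57BL/6J testes at 10 weeks, were not used. The genotypes thus have no replicates, so the differences are between these libraries and carry no p-value.

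The axoneme is the microtubule core of cilia and of the sperm tail, a ring of doublet microtubules around a central pair. Outer and inner dynein arms, built on very large heavy chains, walk along the neighbouring doublet. Radial spokes and the nexin-dynein regulatory complex pass signals from the central pair to the arms, while tektins and other proteins line the inside of the doublets. Male germ cells make much of this RNA before the tail appears, some of it already in meiosis, and several parts have separate genes for the sperm tail and for the cilia of other tissues.

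The whole table sets the frame for these genes. Piwil1 was at 26.2 RPKM (read number relative to gene length and library size) in Piwil1+/- and was listed at 0 in Piwil1-/-. The library totals recovered from the RPKM values were 104014686 and 100254357 reads. The pachytene marker Sycp3, of the synaptonemal complex, was at 163 and 185 RPKM. A gene is called measured below where at least 1 of the libraries has 1 RPKM or more. The log2 ratio is log2 (RPKM + 1) in the knockout minus that in the heterozygote, which makes differences of weakly expressed genes look smaller. Of the members 60 of 67 were measured, 89.6%, against 43.6% of all identifiers. Intervals are 95% exact binomial intervals of the RPKM ratio and cover counting error only. They use the lowest whole reads able to give both values, so they are too wide where the true reads were more.

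As a group the axoneme genes had a median log2 ratio near 0, while a few genes and subfamilies lay to one side. The median log2 ratio of the 60 measured members was -0.00028, beside 0.0055 for all 9951 measured genes, and 30 members lay above 0 and 30 below, where 51.2% and 48.8% of all measured genes did. At least 2-fold lower in Piwil1-/- was 1 member, Cfap97d1, where 1.96% of all measured genes were, and no member was at least 2-fold higher, where 0.231% of all were. At least 1.5-fold lower were 3 members (Cfap97d1, Cfap100 and Tekt2), beside 5.21% of all measured genes, and at least 1.5-fold higher was 1 (Cfap300), beside 1.42%. Within 1.5-fold lay 93.3% of the members and 93.4% of all genes, so these shares are near the background. The middle of the distribution was wider than that of all genes: the quartiles of the members' log2 ratios were -0.17 and 0.17, and those of all measured genes -0.12 and 0.11. These sets are not matched in level, with medians of 26.8 and 6.54 RPKM in Piwil1+/-. The pseudocount shrinks the ratios of weakly expressed genes more, so the widths are not directly comparable. Just past the 1.5-fold line were Tekt2 (-0.63) on the lower side and Cfap300 (0.70) on the higher, and just short of it Cfap126 (-0.50) and Dnah7c (0.53). The 2-fold line was passed by Cfap97d1 (-1.97), and the next lower ratio was that of Cfap100, at -0.64.

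Start-site sequences are shown for 2 reasons: for the genes with the lowest and the highest ratio, and for a short inverted repeat found before several members' starts. The 150 bases before the RefSeq start of Cfap97d1 (chr11:101986906-101987055, plus strand, GRCm38.p6, the assembly also named mm10) and of Cfap300 (chr9:8042876-8043025, minus strand) were as follows, 5′ to 3′. Neither holds a motif searched here, so neither has capitals.
Cfap97d1: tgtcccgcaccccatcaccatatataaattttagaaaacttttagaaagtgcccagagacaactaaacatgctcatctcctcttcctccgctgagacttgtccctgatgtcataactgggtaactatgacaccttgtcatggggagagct
Cfap300: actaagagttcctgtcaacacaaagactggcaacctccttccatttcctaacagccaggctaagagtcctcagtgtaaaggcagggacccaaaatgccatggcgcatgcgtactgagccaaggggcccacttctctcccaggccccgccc

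The motifs were searched on both strands in windows from 250 bases before to 50 after each RefSeq start, 63 windows of 56 members and 32851 windows of all genes. A full X-box, the site of RFX transcription factors (GTTNCC and GGNAAC with 2 bases between), was in 1.59% of the members' windows and 0.451% of all. A shorter X-box form, GTTGCCATG, which can lie inside the full one, was in 6.35% and 0.773%. Among the members this is 1 window, of Cfap298, for the full form and 4 windows of 3 genes for the shorter one. These genes are Cfap161, Cfap97d2 and Cfap74, whose site was counted from 2 starts. The cAMP response element TGACGTCA, the site of CREM, was in 1.59% and 1.79%, its looser form TGACGTNA, which takes in the first, in 1.59% and 2.93%, and the FOXJ1 motif TGTTTAC in 6.35% and 3.65%. A related inverted repeat, GTTGC and GCAAC with 3 bases between, was added after the members' sequences had been seen, so its share among them is no independent observation. It was in 9 of the 63 windows, 14.3%, and in 74 of all windows, 0.225%. The same Tekt2 site was counted in 2 of the 9, from 2 overlapping windows. The same repeat with 4 bases between was in 3.17% and 0.174%, in the genes Cfap298 and Cfap44. That of Cfap298 is also its full X-box.

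For 7 members with the 3-base form, 30 bases each are shown, with the repeat in capitals. Those of the 3 Dnah7 genes are nearly the same sequence, so they are not separate cases.
Dnah7a: gccagtttGTTGCTTAGCAACgaatcgacc
Dnah7b: gccagtttGTTGCTTAGCAACgaatcgacc
Dnah7c: tccagtttGTTGCTTAGCAACgaatcgacc
Dnaic2: cggccaggGTTGCTAGGCAACtggtaaact
Rsph3b: aacctcggGTTGCTCGGCAACcgatggggg
Tekt2: agggggcgGTTGCTCGGCAACcagagccgc
Tekt4: gtgaccctGTTGCTCAGCAACaggaggcag

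The stretches lie at chr1:53706820-53706849 (minus strand) for Dnah7a, chr1:46066821-46066850 (plus strand) for Dnah7b, chr1:46425441-46425470 (plus strand) for Dnah7c, chr11:114727378-114727407 (plus strand) for Dnaic2, chr17:6948326-6948355 (minus strand) for Rsph3b, chr4:126325696-126325725 (minus strand) for Tekt2 and chr17:25471546-25471575 (plus strand) for Tekt4. The repeat starts between 24 and 71 bases before the RefSeq start in 6 of these genes, counting each start, and 9 bases after it in Rsph3b. The RNA of these genes lay on both sides of 0: Dnah7a, Dnah7b, Dnah7c and Rsph3b had log2 ratios above 0 (0.41, 0.49, 0.53 and 0.35), and Dnaic2, Tekt4 and Tekt2 ratios below 0 (-0.11, -0.31 and -0.63). A match describes these letters only and shows no binding.

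**Figure D1:**
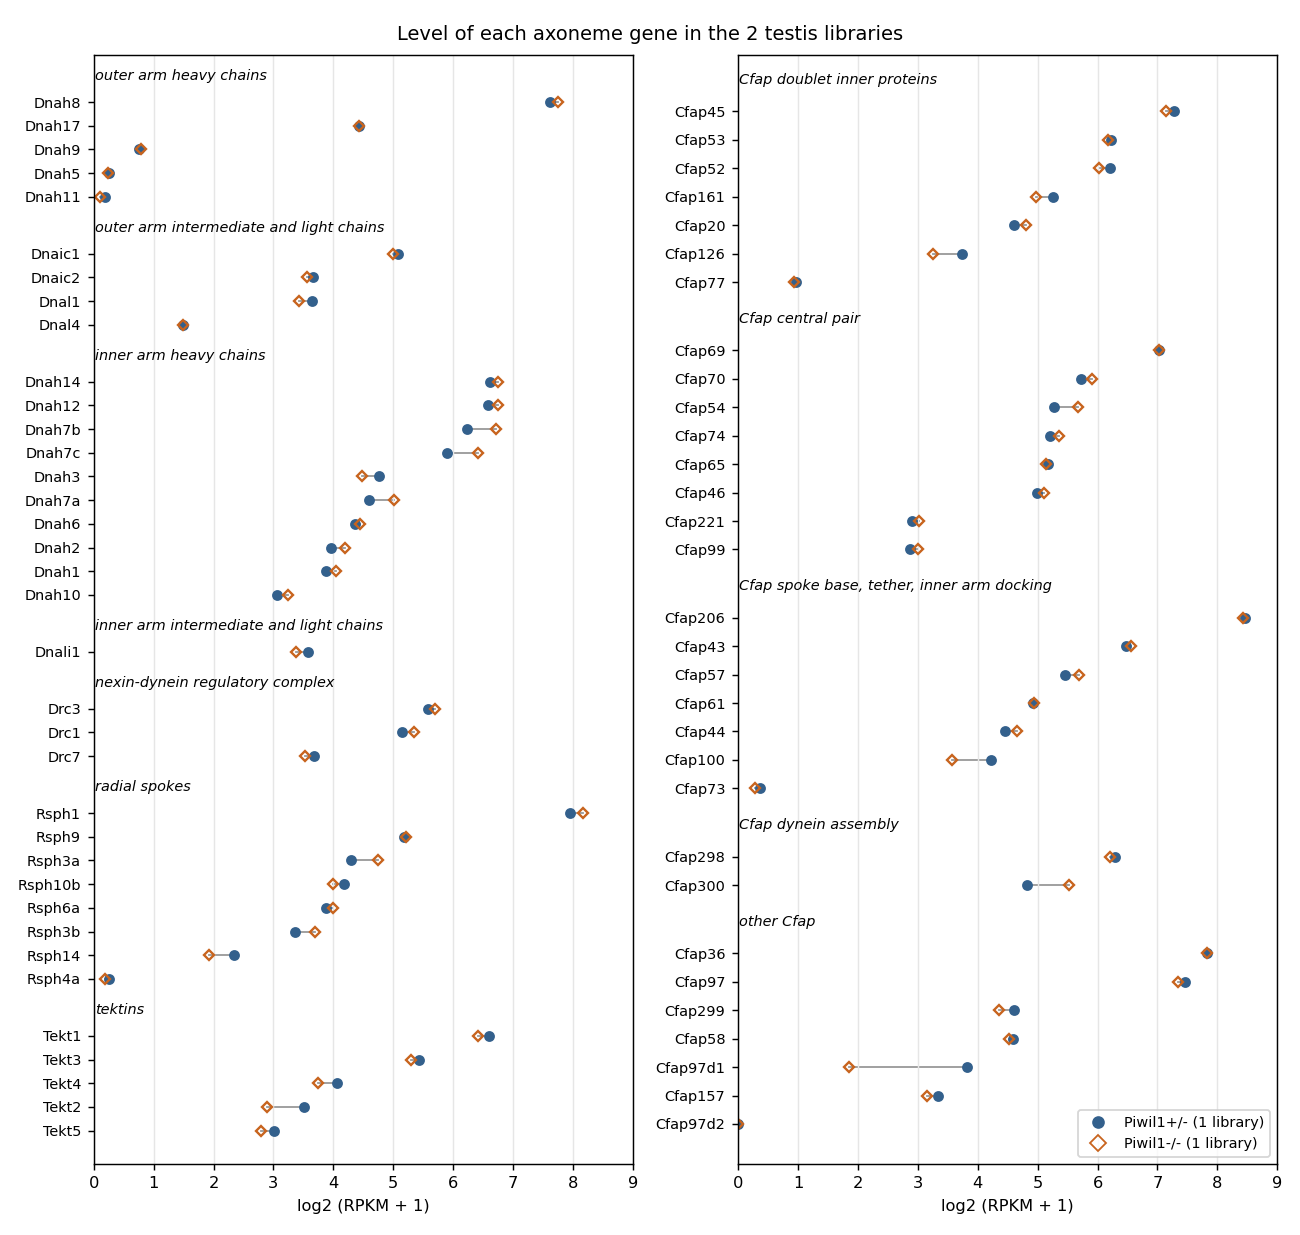
Level of each of the 67 axoneme genes, as log2 (RPKM + 1), in the Piwil1+/- library (filled circles) and the Piwil1-/- library (open diamonds), by subfamily. Most pairs of symbols lie close together; the widest gap is that of Cfap97d1, and Dnah5, Dnah9, Dnah11, Rsph4a, Cfap73, Cfap77 and Cfap97d2 lie near the left edge in both libraries.

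Outer arm heavy chains of the sperm tail were expressed far above those of other cilia. Where values come in pairs, the first is that of the heterozygote and the second that of the knockout. Dnah8, the outer arm heavy chain of the sperm tail, had 194 RPKM in the heterozygote against 214 in the knockout, the highest of the heavy chains in both libraries. Dnah17, the other sperm heavy chain, was at 20.6 and 20.4 RPKM. The heavy chains of airway and other somatic cilia were far lower: Dnah9 at 0.698 and 0.724 RPKM, Dnah5 at 0.190 and 0.1798, and Dnah11 at 0.136 and 0.0743. Sperm and somatic chains thus did not overlap in level in either library. Dnah8 had a log2 ratio of 0.13 (RPKM ratio 1.10, interval 1.08 to 1.11) and Dnah17 one of -0.01.

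The smaller outer arm chains were lower than Dnah8 in level. The intermediate chain Dnaic1 was at 32.8 and 31.1 RPKM and its partner Dnaic2 at 11.7 and 10.8. The light chain Dnal1 was at 11.5 and 9.81 RPKM, and Dnal4, annotated as an axonemal light chain, at 1.80 and 1.81. Of these 4 genes 3 had ratios below 0, and their median log2 ratio was -0.09. The interval of Dnaic1, 0.907 to 0.991, lay below 1, and those of the other 3 spanned 1. The widths rest on the lowest reads that fit, so spanning 1 can reflect that limit. Over the 6 measured outer arm genes the median was -0.04, which was -0.11 over the 3 that overlap no other gene. The 2 measured outer arm heavy chains alone had a median of 0.06.

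Most inner arm heavy chains lay above 0. Of the 10, all measured, 9 had a log2 ratio above 0, beside 51.2% of all measured genes, with a median of 0.17. For all 9 the interval of the RPKM ratio lay above 1. Of the 60 measured members, 25 had intervals above 1 and 21 below it, so most excluded 1. The share over all measured genes was not computed. Dnah14 and Dnah12 had the highest levels, at 96.9 and 94.6 RPKM in Piwil1+/- and 107 and 106 in Piwil1-/-. Dnah1, whose loss in mice and men is known to disturb the sperm tail, was at 13.6 and 15.4 RPKM. Dnah2 and Dnah10, the heavy chains of the inner arm that carries a pair of motors, were at 14.5 and 17.3 RPKM and at 7.38 and 8.44. Dnah6 was at 19.6 and 20.7 RPKM. The exception was Dnah3, at 26.3 RPKM in Piwil1+/- and 21.3 in Piwil1-/- (RPKM ratio 0.810, interval 0.791 to 0.830).

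The 3 Dnah7 genes, near-identical copies on chromosome 1 (chr1:46066071-46373551 for Dnah7b, chr1:46425428-46807477 for Dnah7c and chr1:53396995-53707301 for Dnah7a), had the largest ratios of the heavy chains. Dnah7b measured 74.4 RPKM in the heterozygote, against 105 in the knockout. Dnah7c was at 58.6 and 84.8, and Dnah7a at 23.3 and 31.2. Each was higher in Piwil1-/-, with RPKM ratios of 1.41 (interval 1.36 to 1.45), 1.45 (1.42 to 1.47) and 1.34 (1.32 to 1.36). Their start windows were 91.8% identical between Dnah7a and Dnah7b over 195 aligned bases, 90.4% between Dnah7a and Dnah7c over 281, and 88.8% between Dnah7b and Dnah7c over 196. The sources used here do not say how reads shared by such copies were counted, so the split between the 3 genes is uncertain, and they are not 3 independent observations. Without these copies the median of the inner arm genes was 0.15.

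Dnali1, an inner arm light chain and the single member among the smaller inner arm chains, was at 11.0 and 9.38 RPKM, with a log2 ratio of -0.21. Taking both arms, 10 of 12 measured heavy chains lay above 0 (median 0.17) and 4 of 5 intermediate and light chains below 0 (median -0.11). No test of the difference between subfamilies was made.

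**Figure D2:**
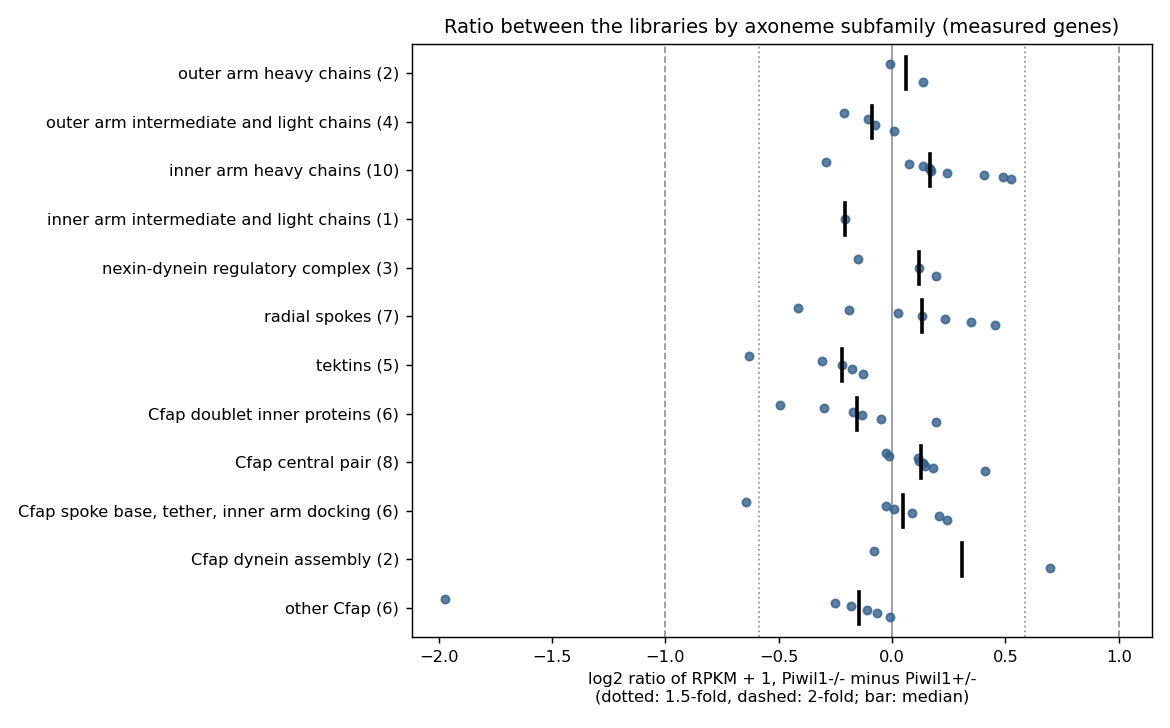
Log2 ratio between Piwil1-/- and Piwil1+/- of the 60 measured axoneme genes (points) by subfamily, with the number of genes in parentheses, the median as a bar, and dotted and dashed lines at 1.5-fold and 2-fold. Of the 10 inner arm heavy chains 9 lie to the right of 0, and the 5 tektins lie to its left.

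Radial spoke genes lay on both sides of 0. Rsph1, a spoke head protein, had 245 RPKM in the heterozygote against 288 in the knockout (RPKM ratio 1.18, interval 1.15 to 1.20), the highest level among the spoke genes. Rsph9, of the spoke head, was at 35.3 and 36.0 RPKM. Here too the sperm and somatic forms differed in level, with Rsph6a, the testis form, at 13.6 and 15.02 RPKM and Rsph4a, the form of somatic cilia, at 0.188 and 0.135. The stalk genes Rsph3a and Rsph3b, treated here as close copies, were at 18.6 and 25.9 RPKM and at 9.22 and 12.0, log2 ratios of 0.45 and 0.35. Their start windows aligned over 19 bases only, 16 of them identical, too few to show how alike the genes are. Transcript sequences were not compared, and the split of reads between the 2 genes is uncertain. Rsph10b was at 17.1 and 14.9 RPKM, and Rsph14 at 4.06 and 2.79 (RPKM ratio 0.688, interval 0.537 to 0.878). Of 7 measured spoke genes 5 lay above 0, beside 51.2% of all measured genes. Their median was 0.13, which was 0.03 without Rsph3a and Rsph3b.

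Of the nexin-dynein regulatory complex, the link between doublets that steadies the arms, 3 subunits carried Drc symbols in this table. The scaffold gene Drc1 was at 34.6 and 39.7 RPKM and Drc3 at 47.0 and 51.1, both higher in Piwil1-/-. Drc7 was at 11.8 and 10.6 RPKM, lower in Piwil1-/-. The median of the 3 was 0.12, which was 0.02 over Drc1 and Drc7, the ones that overlap no other gene. Other subunits of the complex carry older symbols (Ccdc65, Gas8, Tcte1, Fbxl13, Efcab2, Iqcg, Iqcd, Iqca and Ccdc153). Of the 8 of these 9 that were measured, 7 had ratios below 0, beside 48.8% of all measured genes, with a median of -0.08. The lowest were Fbxl13, at 27.0 and 18.5 RPKM, and Iqca, at 6.23 and 4.18, and the one above 0 was Tcte1, at 4.80 and 5.30. Over all 11 measured subunits 3 lay above 0 and 8 below, with a median of -0.04.

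All 5 tektins were lower in Piwil1-/- testis, where 48.8% of all measured genes had a ratio below 0. Tektins are filament proteins that run along the doublet wall. Tekt1 had 96.0 RPKM in the heterozygote against 84.7 in the knockout, and Tekt3 had 42.0 and 38.3. Tekt4 was at 15.6 and 12.4 RPKM and Tekt5 at 7.09 and 5.93. Tekt2, required for normal sperm movement in mice, had the largest difference of the family, at 10.5 and 6.41 RPKM (ratio 0.613, interval 0.521 to 0.720). Its span, chr4:126322121-126325688, overlaps no other RefSeq gene. The median log2 ratio of the family was -0.22, and over Tekt2 and Tekt4, the 2 that overlap no other gene, it was -0.47. The interval of Tekt4, 0.561 to 1.12, spanned 1. Those of the other tektins lay below 1, as did those of 21 of the 60 measured members. That of Tekt4 rests on 81 and 62 reads, the lowest that fit, so it may be too wide.

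Cfap genes of the doublet interior lay mostly below 0. Of 6 measured, 5 had ratios below 0, beside 48.8% of all measured genes, and the median was -0.15. Cfap126 was at 12.4 and 8.48 RPKM (ratio 0.686, interval 0.598 to 0.786) and Cfap161 at 37.4 and 30.2. Cfap45 was at 154 and 141 RPKM, Cfap52 at 72.6 and 64.3 and Cfap53 at 74.1 and 71.6. Cfap20, a protein of the junction between the doublet's tubules, was the exception at 23.4 and 26.9 RPKM. Cfap77 was at 0.957 and 0.914 RPKM, under the level that counts as measured.

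Central pair Cfap genes lay slightly above 0. Of the 8, all measured, 6 had positive ratios, beside 51.2% of all measured genes. The median was 0.13, which turned to -0.01 without the members that overlap another gene. Cfap54, a large central pair protein, had 37.5 RPKM in the heterozygote against 50.1 in the knockout (ratio 1.34, interval 1.13 to 1.58). Cfap69 was the highest in level, at 130 and 129 RPKM, and Cfap65 was at 35.0 and 34.3. The other 5 (Cfap46, Cfap70, Cfap74, Cfap99 and Cfap221) had log2 ratios between 0.12 and 0.18.

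Genes of the spoke base, the inner arm tether and inner arm docking were spread on both sides. Cfap206, a spoke base protein, was the most abundant member of all, at 351 and 344 RPKM. The tether genes Cfap43 and Cfap44 were at 87.7 and 93.1 and at 20.8 and 24.2 RPKM, Cfap57 at 42.8 and 50.8, and Cfap61 at 29.4 and 29.5. Cfap100, which with its partner Cfap73 forms an adaptor of an inner arm in algae, had 17.6 RPKM in the heterozygote against 10.9 in the knockout (ratio 0.619, interval 0.563 to 0.680, chr6:90403731-90429768). Cfap73 itself was at 0.292 and 0.217 RPKM.

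The dynein assembly genes parted. Cfap300, needed to put dynein arms together in the cytoplasm, had 27.3 RPKM in the heterozygote against 44.9 in the knockout (log2 ratio 0.70, RPKM ratio 1.64, interval 1.54 to 1.75, on 1569 and 2485 reads or more). It was the highest ratio among the members, at percentile 99.2 of all measured genes. Cfap298, of the same process, was at 77.3 and 73.0 RPKM.

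Cfap97d1 stood apart from all other members. It encodes a small protein needed to keep the sperm tail axoneme intact in mice. It had 13.1 RPKM in the heterozygote against 2.60 in the knockout, on 387 and 74 reads or more. The RPKM ratio was 0.198 (interval 0.153 to 0.255) and the log2 ratio -1.97. Its span, chr11:101987056-101992264, overlaps no other RefSeq gene. Of the genes that share its name, Cfap97 was at 175 and 162 RPKM, and Cfap97d2 was listed at 0 in both. Of the other genes in this group, Cfap36 was at 226 and 225 RPKM, Cfap299 at 23.3 and 19.4, Cfap58 at 23.0 and 22.0, and Cfap157, a basal body protein, at 9.06 and 7.89. All 6 measured genes of the group had ratios below 0, beside 48.8% of all measured genes, with a median of -0.14.

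The lean of each group was set beside 3 lists of axoneme genes with other names. Doublet inner proteins outside the name rule had ratios below 0 in 11 of 13 genes, beside 48.8% of all measured genes, with a median of -0.19. Saxo1, a microtubule-stabilising protein of the tail, was at 6.27 and 2.34 RPKM, the single gene of that list past 1.5-fold. A list of central pair, spoke and regulatory complex partners had a median of -0.04 over 21 measured genes, with 8 above 0. Of these, 8 were the regulatory complex subunits with older symbols given above. The other 13 had 7 ratios above 0 and a median of 0.0011. Spag6, a central pair gene, was at 32.7 and 19.1 RPKM, while its close relative Spag6l was at 89.3 and 98.6. Dynein assembly and docking factors had a median of -0.02 over 19 genes, 7 above 0, and none passed 1.5-fold, with log2 ratios from -0.28 (Dnaaf1) to 0.23 (Pih1d1).

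Germ cell stage markers differed between these libraries over a larger range than the axoneme groups did. Markers of pachytene spermatocytes lay above 0 in 7 of 7 genes, beside 51.2% of all measured genes, with a median log2 ratio of 0.23. Their summed level was 526 RPKM in Piwil1+/- and 607 in Piwil1-/-. Round spermatid markers had a median of -0.66 over 8 genes, 6 below 0 and 2 above, and summed levels of 306 and 246 RPKM. The 2 above 0, Spata16 at 107 and 110 RPKM and Dpy19l2 at 52.4 and 53.4, had the highest levels of that list. Elongating spermatid markers had a median of -1.38 over the 10 of 12 measured and summed levels of 618 and 412 RPKM. Odf2, at 420 and 348 RPKM, made up most of these sums, which were 198 and 63.9 RPKM without it. Prm1, Prm2 and Tnp1 were at 0.0616, 1.42 and 0.458 RPKM in the heterozygote and listed at 0 for the knockout, so of these Prm2 alone counts as measured. Markers of spermatogonia, Sertoli cells and Leydig cells had medians of 0.04 (3 genes), 0.07 (4) and -0.22 (4). The part of this stage difference in the ratios of the axoneme groups was not tested. In whole testis RNA, fewer cells of a stage and less RNA per cell cannot be told apart.

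Cells with motile cilia can reach a testis sample from the rete and the efferent ducts. Of 8 markers of multiciliated cells, 2 were measured, Deup1 at 37.2 and 26.6 RPKM and Foxj1 at 1.08 and 0.859. Their summed level was 38.6 RPKM in Piwil1+/- and 28.2 in Piwil1-/-, nearly all of it Deup1. Mcidas and Sntn were listed at 0 in both libraries, and Gmnc, Ccno, Cdhr3 and Ccdc78 were under 1 RPKM. The part of such cells in the axoneme values was not tested.

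**Figure D3:**
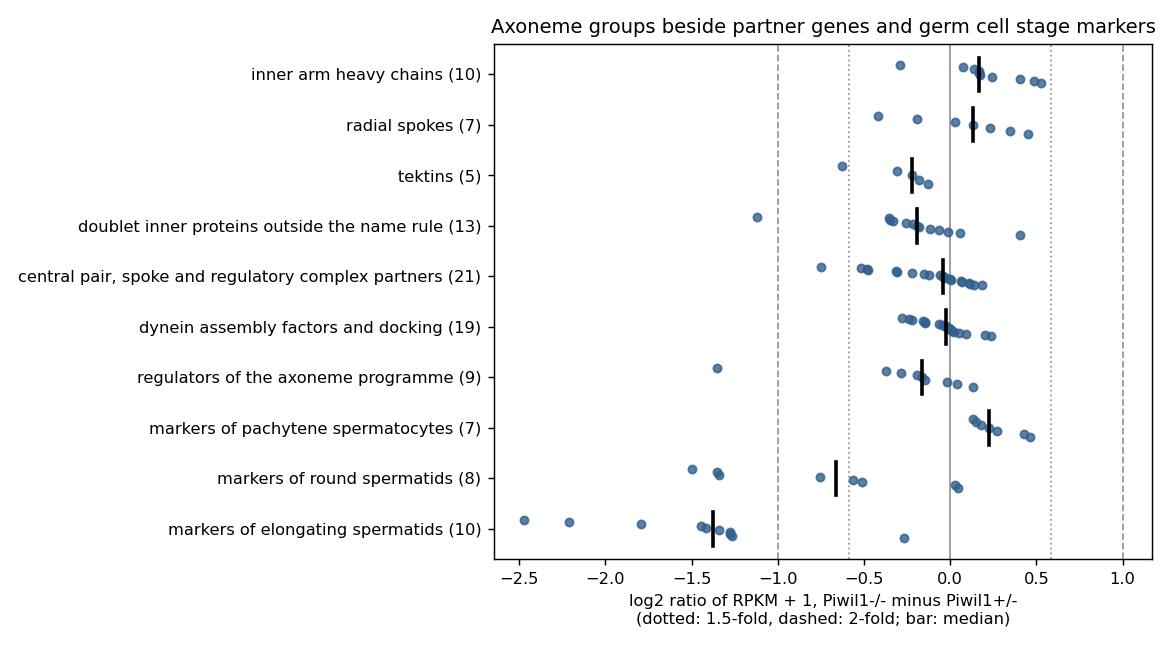
Log2 ratio between Piwil1-/- and Piwil1+/- of measured genes (points, with the median as a bar, the number of genes in parentheses and lines at 1.5-fold and 2-fold) for 3 axoneme groups, the partner lists, the regulators and the germ cell stage markers. Pachytene markers lie right of 0 with a median of 0.23 and elongating spermatid markers left of it with a median of -1.38, and the medians of the axoneme groups lie between these.

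Among the members, log2 ratios were higher for longer genes. Over the 59 measured members with a RefSeq span, introns included, Spearman's rho between span and log2 ratio was 0.45 and Pearson's r with log2 span was 0.49. Over the 47 that are not heavy chains rho was 0.38, and over 9564 other measured genes it was 0.05. These values are across genes, which share the same 2 libraries and are not replicates. All 4 members under 10 kb had ratios below 0 (median -0.40). Of 15 members of 100 kb or more, 12 had ratios above 0 (median 0.14), the Dnah7 copies among them. Ratios above 0 were found for 44.9% of other genes under 10 kb and 50.7% of those of 100 kb or more. Other genes at the members' middle levels, 13.5 to 62.1 RPKM in Piwil1+/-, had medians of -0.06 under 10 kb and -0.0015 at 100 kb or more. The members were not limited to these levels, so the medians are not matched. The 4 members under 10 kb all lay outside them, at 77.3 (Cfap298), 13.1 (Cfap97d1), 10.5 (Tekt2) and 9.06 RPKM (Cfap157) in Piwil1+/-. The exceptions among the large members were Dnah3, Dnah17 and Cfap299.

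**Figure D4:**
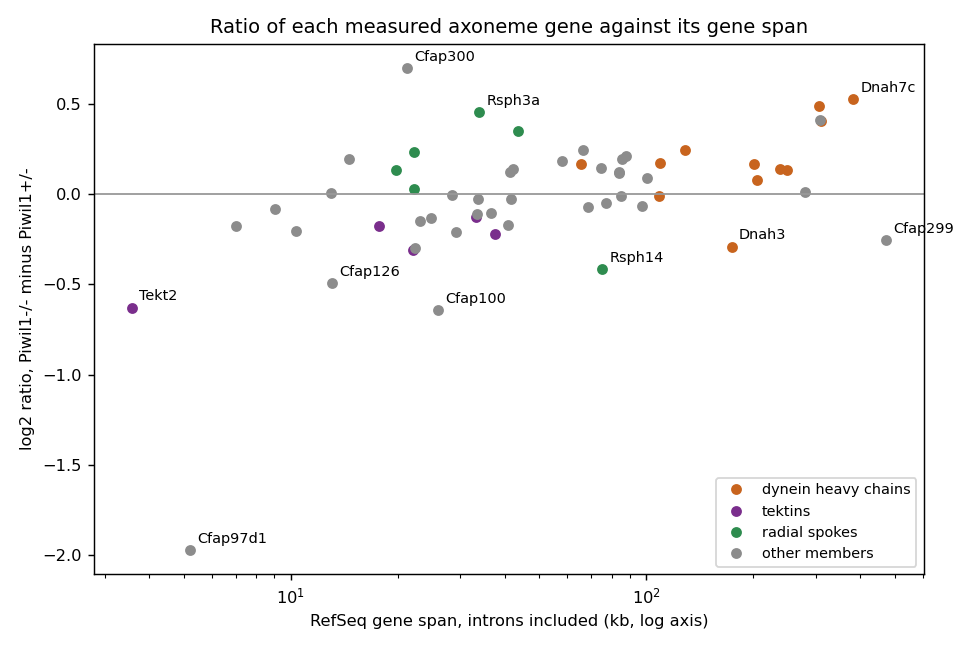
Log2 ratio between Piwil1-/- and Piwil1+/- against RefSeq gene span in kb (log axis) for the 59 measured members with a span, coloured by family. Dynein heavy chains sit at the right, mostly above 0, and Tekt2 and Cfap97d1, the members with the shortest spans, lie below 0.

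Expressed axoneme genes were abundant in the testis at this age. The median level of the 60 measured members was 26.8 RPKM in Piwil1+/- and 29.9 in Piwil1-/-, beside 6.54 and 6.30 for all measured genes. In Piwil1+/-, 56 of the 60 were above the median of all measured genes and 20 were in its top 10%. The summed RPKM of all 67 members was 3155 in Piwil1+/- and 3272 in Piwil1-/-. By group, the summed level of the inner arm heavy chains was 429 and 517 RPKM, that of the radial spokes 344 and 395, and that of the tektins 171 and 148. A few genes led these differences. In the inner arm sum they were the copies Dnah7b (74.4 and 105 RPKM) and Dnah7c (58.6 and 84.8). Rsph1 (245 and 288) led the spoke sum and Tekt1 (96.0 and 84.7) the tektin sum.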

How the data were processed

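Libraries were directional TruSeq libraries of total RNA after removal of ribosomal RNA, per the labels' protocols. The authors deposited RPKM values for 22808 Ensembl gene identifiers, per the file headers. STAR, Bowtie and mm10 are named in the submitters' processing notes, with no role given. The counter, the annotation, the gene lengths and strand handling were not given in the sources used here. Reads of overlapping or antisense genes therefore cannot be told apart: 36 of the 67 members have a RefSeq span that overlaps another gene's.

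Symbols came from a table of gene names (22444 identifiers matched), and spans, strands and start windows from RefSeq, GRCm38.p6 (56 members had a start window). Log2 ratios used a pseudocount of 1 RPKM over genes with 1 RPKM or more in either library. Reads were recovered as the smallest whole numbers whose ratio fits both RPKM values (a unique pair for 15815 of 16558 genes, 95.5%), with library totals from 72 genes under 1500 bp. They are lower limits, not depths. The method was run on simulated data with random gene lengths and the rounding it assumes, which does not test the unknown gene lengths of this table. Python 3.11.15, numpy 2.4.6, pandas 2.3.3, scipy 1.17.1 and matplotlib 3.10.9 were used.

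The members, subfamilies and gene lists were chosen with earlier results of these data known. Genes that took a family name later (such as Wdr63, now Dnai3) carry older symbols here and are no members. Any member could be named; in full are given the 10 lowest and 5 highest ratios, the highest level of each subfamily, the genes around the fold lines and the sperm and somatic paralogs. Outside the members the rule named Piwil1 and list genes past 1.5-fold, and other genes named, and the regulatory complex subunits set apart from the partner list, were chosen after their values were seen. Alternatives to the pseudocount, filter, scaling and membership were tried. One start-site sequence is not reported here.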

Additional observations from a re-analysis of the deposited data

How the results depend on the processing

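The settings tried were pseudocounts of 0.1 and 0.5 RPKM, no minimum or a minimum of 5 RPKM, rescaling by the median or trimmed mean of all log2 ratios, and leaving out near-identical copies or members that overlap another gene. In each of these, 1 member was 2-fold lower or more and none was 2-fold higher. At least 1.5-fold lower were 3, and at least 1.5-fold higher was 1. Of all genes passing the filter, 1.08% to 3.34% were 2-fold lower or more, depending on the setting, and 0.128% to 0.683% were 2-fold higher. For 1.5-fold, the shares were 2.97% to 7.02% lower and 0.794% to 2.83% higher. Leaving out the overlapping members moved the median log2 ratio of the members to -0.05, with 11 of 28 above 0, that of the tektins (2 genes left) to -0.47, of the outer arm (3) to -0.11, of the regulatory complex (2) to 0.02, of the doublet inner Cfap genes (4) to -0.24, of the central pair genes (3) to -0.01 and of the spoke base group (3) to -0.03. The inner arm median lay between 0.15 and 0.24, and that of the spokes between 0.03 and 0.18. Adding measured genes that took a family name later, an alternative chosen after seeing the data, gave a median of -0.03. There 32 of 77 lay above 0, beside 51.2% of all measured genes, a share that also stands beside the 11 of 28. Past 1.5-fold lower were 4, beside 5.21% of all measured genes. No paired analysis was possible because each genotype has 1 library. Without replicates, the spread between animals is unknown.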

Other observations

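Genes that later received an axoneme family name, but carry older symbols in the table, lay mostly below 0. Of 17 measured, 15 had log2 ratios below 0, beside 48.8% of all measured genes, with a median of -0.09. Of the 17, 8 are regulatory complex subunits also on the partner list, and of the other 9, 8 lay below 0. The 3 dynein intermediate chains Wdr63, Wdr78 and Casc1, now Dnai3, Dnai4 and Dnai7, were at 24.4 and 22.1, at 51.5 and 51.6, and at 14.2 and 13.3 RPKM in the heterozygote and the knockout. Fam183b, now Cfap144, a doublet inner protein, was at 11.5 and 6.08 RPKM, a log2 ratio of -0.82, and was the single gene of the list past 1.5-fold.

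Of 9 genes that regulate axoneme or spermatid programmes, 7 had ratios below 0, beside 48.8% of all measured genes, with a median of -0.16. Fhl5, a coactivator of CREM that is also on the round spermatid list, was at 21.6 and 7.86 RPKM and was the single one past 1.5-fold. Crem itself was at 89.0 and 73.0 RPKM, Rfx2, an X-box factor of spermatids, at 6.06 and 6.25, and Mybl1, the A-MYB factor of pachytene cells, at 36.7 and 40.3.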
